A study of Mus musculus with 369 samples.

Results

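Among wild-type mouse microglia sorted for Gpnmb and Clec7a protein at the cell surface, 61 cells held Gpnmb RNA above a low threshold and 29 held less or none, of 90 cells that passed quality control. Members were chosen by their own Gpnmb level: counts scaled to a fixed total of gene counts per cell (CPM, with spike-ins left out) of 10 or more made a cell Gpnmb-positive, and fewer made it Gpnmb-negative. In the whole series, 334 single cells passed. All cells came from brains of male mice on the C57BL/6J background at postnatal day 7, and each was sorted into its own well and sequenced with Smart-seq2, which amplifies full-length RNA of 1 cell without molecular identifiers. The gated wild-type cells were CD45 low, CD11b positive, Gpnmb positive and Clec7a positive by antibody. For reference, levels are also given in 78 passing wild-type cells sorted as CD45 low and CD11b positive only (unselected), and in 76 passing cells of the Gpnmb and Clec7a gate from Trem2 knockout mice. A group fills a single plate, and the animals behind its cells are not named, so a group is 1 sample. Both sets compared here lie on the same plate. Cells are not replicates of a condition, so no test was made and no p-value is given, and every difference below describes these cells.

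Gpnmb encodes a heavily glycosylated transmembrane protein of endosomes, lysosomes and the cell surface, found in macrophages, osteoclasts and pigment cells. In microglia, its RNA is a marker of the activated state seen around amyloid plaques, in demyelinated tissue and, during the first postnatal weeks, in developing white matter. Clec7a encodes dectin-1, a pattern recognition receptor of the same state. In that state, microglia raise genes for lipid handling, lysosomal digestion and growth factors, and lower the surface receptors of resting (homeostatic) microglia.

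Because the split is by Gpnmb RNA, the bases upstream of its start site are shown first, beside those of Spp1, which encodes the glycoprotein osteopontin, a secreted product of the activated state. Both are 250 bases ending just before the start site, from RefSeq on build GRCm38.p6 (Gpnmb chr6:49036268-49036517, plus strand; Spp1 chr5:104434861-104435110, plus strand). The search was for CACGTG, the E-box, and for TCACGTG and TCATGTG, 2 forms bound by the MiT/TFE family of lysosomal transcription factors; TCACGTG contains CACGTG. Both strands were searched, and neither sequence holds any of the 3, so no capitals appear. Another Spp1 promoter in RefSeq, at chr5:104435942-104436191, is not shown and holds none of these motifs either.
Gpnmb: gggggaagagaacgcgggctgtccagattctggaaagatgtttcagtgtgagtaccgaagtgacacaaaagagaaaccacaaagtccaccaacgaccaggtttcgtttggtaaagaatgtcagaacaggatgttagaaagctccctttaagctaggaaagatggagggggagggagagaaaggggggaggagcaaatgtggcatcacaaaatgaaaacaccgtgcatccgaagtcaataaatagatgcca
Spp1: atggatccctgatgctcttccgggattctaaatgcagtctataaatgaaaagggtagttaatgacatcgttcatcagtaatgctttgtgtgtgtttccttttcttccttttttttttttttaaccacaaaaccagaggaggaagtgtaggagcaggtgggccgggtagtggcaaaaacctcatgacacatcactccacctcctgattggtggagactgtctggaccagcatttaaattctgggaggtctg
For the shares that follow, the window also took in bases just after the start site, and a match in any promoter of a gene counted. Among 7049 measured genes with a promoter in the RefSeq table, 12.13% held CACGTG, against 8.83% of genes called higher and 10.6% of genes called lower in Gpnmb-positive cells. TCACGTG was in 7.46%, 5.19% and 6.19%, and TCATGTG in 2.72%, 3.46% and 2.06%, in the same order. A match, or none, describes letters in these windows only.

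Of the 29 negative cells, 23 had 0 Gpnmb counts and 6 had from 1.52 to 6.05 CPM. The lowest positive cells had 11.6, 13.0, 15.1 and 40.2 CPM, so few cells lay near the threshold. The positive cells reached 10923 CPM with a median of 1356, and 32 of them had 1000 CPM or more while 11 had fewer than 100. The positive share was 67.8% (exact Clopper-Pearson interval 57.1 to 77.2%, counting error only). All these values are the rule itself.

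**Figure D1:**
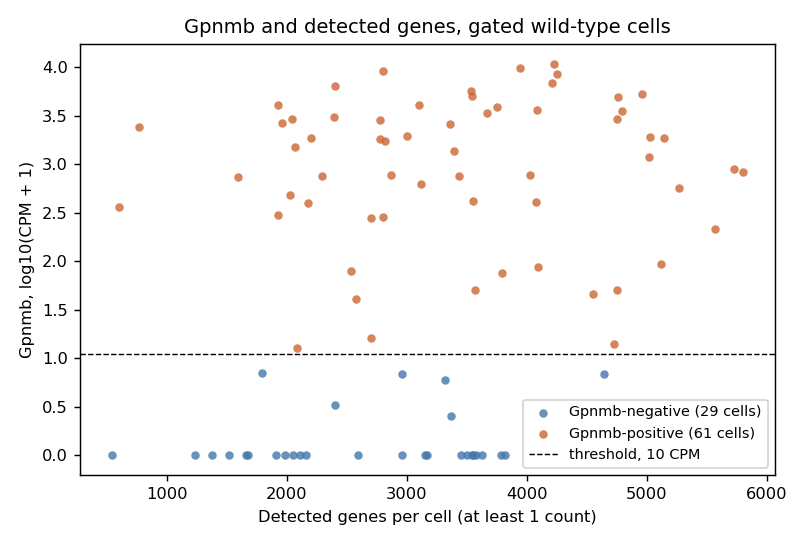
Gpnmb level per cell as log10(CPM + 1) (vertical) against the number of genes with at least 1 count (horizontal) in the 61 Gpnmb-positive and 29 Gpnmb-negative gated wild-type cells, with the threshold of 10 CPM as a dashed line. Positive cells are found over the range of detected genes from 602 to 5805, negative cells from 544 to 4643.

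The sets differed in how many genes a cell yielded. Positive cells had a median of 3436 detected genes and negative cells 2957, although median gene counts were 620567 and 646203. Gene counts per spike-in count, a measure of RNA content, had medians of 42.9 and 31.5. Of the 45 cells below the plate median of 3162.5 detected genes, 62.2% were Gpnmb-positive, against 73.3% of the 45 at or above it. To take this into account, 27 negative cells were each paired with a positive cell of nearly equal number of detected genes (medians 2961 and 2999). A gene was called higher or lower only where the difference was at least 2-fold both over all cells and over these pairs.

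Nearly all cells of both sets held Cx3cr1 and Fcrls, which are among the defining genes of microglia. Other such genes were less widespread. Tmem119 reached 10 CPM in 35 of 61 positive and 21 of 29 negative cells, and P2ry12 in 57 of 61 and 26 of 29. After thinning every cell to 100000 gene counts, Cx3cr1 was found in 100% of positive and 96.6% of negative cells and Fcrls in 100% of positive and 96.6% of negative cells. Of 10 neuronal markers 8 were at 0 in both sets, as were 8 of 9 matched neutrophil markers and 6 of 9 monocyte markers. So were 8 of 9 matched lymphocyte markers and 9 of 12 markers of endothelium, pericytes and fibroblasts, but Cd79b was at 102 CPM in positive and 83.6 CPM in negative cells. Only 4 of 10 oligodendrocyte-lineage and 1 of 8 astrocyte markers were at 0. Their summed levels were 122 and 62 CPM in positive cells and 155 and 89.8 CPM in negative cells. Markers of border-associated macrophages, the macrophages of the meninges and perivascular spaces, were not at 0 either, and are described with the genes they move with. The negative cell of well H4 had 13 of these markers at 10 CPM and 0 CPM of Cx3cr1, P2ry12 and Tmem119.

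Of 9597 genes measured at 5 CPM or more in either set, 1467 were called higher in positive cells (15.3%) and 1733 lower (18.1%). These shares are the background for the list counts below. Among 1884 genes at 100 CPM or more, 63 (3.34%) were higher and 179 (9.5%) lower. Where 2 levels are set against each other, the first is that of positive cells. Differences are positive minus negative in log2 of (CPM + 1) from counts summed over a set, which understates the difference of low genes. The median over all measured genes was -0.12, and it was 0.08 with trimmed-mean (TMM) factors and 0.17 with spike-in scaling. Higher genes made up 45.8% of called genes as scaled here, 54.5% with TMM factors and 58.3% with spike-in scaling.

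Genes of disease-associated microglia and of microglia of proliferative regions were on balance higher in cells with Gpnmb RNA, though mostly by less than 2-fold. Of 38 measured members 29 lay above 0, and their median log2 difference was 0.48 against -0.12 over all measured genes, or 0.33 to 0.77 over the alternatives run. Members called numbered 7 higher and 3 lower, and the share called higher was close to the 15.3% of all measured genes. The 7 higher genes were Spp1, Igf1, Cst7, Lilrb4, Gpx3, Mamdc2 and Gm1673. The 3 lower ones were Ccl4, Cox6a2 and Postn, at 108, 10.5 and 29.8 CPM in negative cells.

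Spp1 stood at 12028 CPM against 2073 CPM (log2 difference 2.54, 2.64 in the matched cells). Spp1 ran from 0 to 59524 CPM with a median of 5382 in the positive cells, and from 0 to 14273 CPM with a median of 290.2 in the negative cells. It reached 1000 CPM in 47 of 61 positive cells (77%, 64.5 to 86.8%) and in 8 of 29 negative cells (27.6%, 12.7 to 47.2%). The ranges of the sets overlapped. The difference was 2.06 among cells below the plate median of detected genes and 2.83 among those above it. Summed-count levels had Poisson intervals of 11992 to 12064 and 2051 to 2094 CPM, which cover counting error only and are far narrower than the spread between cells.

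Igf1, an insulin-like growth factor, stood at 674 CPM against 333 CPM (log2 difference 1.02, 1.03 in the matched cells). Igf1 ran from 0 to 2140.5 CPM with a median of 499 in the positive cells, and from 0 to 1879 CPM with a median of 59.4 in the negative cells. It was at 10 CPM or more in 57 of 61 positive cells (93.4%, 84.1 to 98.2%) and in 19 of 29 negative cells (65.5%, 45.7 to 82.1%). Its difference was 0.92 to 1.30 over the alternatives, on both sides of 2-fold. Gpx3, a secreted glutathione peroxidase, was at 906 CPM against 419 CPM (log2 difference 1.11, 1.21 in the matched cells) and higher in the positive cell of 19 of the 27 pairs. Its positive cells ran from 19.6 to 1978 CPM and its negative cells from 0 to 4591 CPM, so the positive range lay within the negative one. Its difference was 0.55 to 1.40 over the alternatives, and it was not called without the 7 cells that held 9 or more markers of border-associated macrophages. Cst7, a cysteine protease inhibitor, was at 54.9 CPM against 17.4 CPM (log2 difference 1.60, 1.59 in the matched cells). Most cells lacked it: Cst7 reached 10 CPM in 17 of 61 positive and 4 of 29 negative cells. In the matched cells it did so in 6 of 27 and 4 of 27. Mamdc2 had 40.8 CPM in positive cells and 0 counts in the 29 negative ones, where 0 of 29 allows a share of cells with a count of up to 10.3% (3 cells of the total); it was found in 13.1% of positive cells after thinning, and 1 cell held 42.4% of its counts.

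Clec7a, the other gene of the gate, was at 408 CPM against 216 CPM and just missed the 2-fold call (log2 difference 0.91, 1.23 in the matched cells). It was at 10 CPM or more in 46 of 61 positive cells (75.4%, 62.7 to 85.5%) and in 13 of 29 negative cells (44.8%, 26.4 to 64.3%), although all cells had passed the gate for both proteins. Clec7a ran from 0 to 4118 CPM with a median of 249 in the positive cells, and from 0 to 1718 CPM with a median of 6.12 in the negative cells. Both genes below 10 CPM, Clec7a and Spp1, were found in 0 of 61 positive cells (which allows up to 4.92%, as 3 cells of the total) and in 4 of 29 negative cells. Itgax, the integrin CD11c, was at 241 CPM against 107 CPM, with a log2 difference of 1.16 over all cells and 0.59 in matched cells, and was not called.

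A single negative cell, in well G4, held most of the negative set's counts of several members of the list. It had 0 Gpnmb counts among 760387 gene counts, but 14273 CPM of Spp1 and 1718 CPM of Clec7a. It held 96% of the negative set's counts of Lgals3 (galectin-3), 98.1% of those of Lilrb4 (an inhibitory receptor), 99.7% of those of Fam20c (a kinase of secreted proteins) and 65.2% of those of Csf1 (a growth factor of macrophages). Its Tmem119 and Gpr56 counts were 0. Other members were absent from it or low: Itgax, Cst7, Axl, Ank, Gm1673 and Mamdc2 had 0 counts, and Apoe was at 4895 CPM against 22485 CPM over all negative cells. It was not alone in high Spp1, since the negative cells of wells H2 and H6 had 13102 and 12566 CPM of Spp1, both with 0 Tmem119 counts. The cell and these genes were singled out after their values were seen. Leaving out this cell raises by construction the difference of genes whose negative counts it mostly held. The counts without it are therefore no support for the list, and no single positive cell was left out in turn. Without it, 13 of the 38 members were called higher against a background of 15.9%, and the added ones were Clec7a, Lgals3, Fabp5, Csf1, Fam20c and Cd44. Then Clec7a differed by 1.46, Csf1 by 1.75, and Spp1 by 2.98. With it, Lgals3 was at 88.7 CPM against 94.5 CPM; without it the negative set was at 3.99 CPM.

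Genes of homeostatic microglia went the other way. Of 33 measured members 0 were called higher and 8 lower, 29 lay below 0, and their median was -0.46, or -0.60 to -0.17 over the alternatives run. Among the 8 were Tmem119, Siglech, Tgfbr1, Gpr56, Gpr165, Ecscr and Lpcat2. The 8 are a somewhat larger share than the 18.1% of all measured genes. With TMM factors or spike-in scaling only 5 were called. In these settings 1415 of 9612 and 1302 of 9628 measured genes were lower, so the 5 were close to the background share.

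Tmem119, a membrane protein specific to resting microglia, stood at 195 CPM against 729.6 CPM (log2 difference -1.90, -2.92 in the matched cells). Tmem119 ran from 0 to 2578 CPM with a median of 20.2 in the positive cells, and from 0 to 3784 CPM with a median of 231 in the negative cells. In the matched cells Tmem119 was at 10 CPM or more in 8 of 27 positive and 20 of 27 negative cells. Gpr56, an adhesion G protein-coupled receptor now called Adgrg1, was at 97.2 CPM against 440.0 CPM (log2 difference -2.17, -3.65 in the matched cells). Gpr56 ran from 0 to 1446 CPM with a median of 0 in the positive cells, and from 0 to 2629 CPM with a median of 276 in the negative cells. In matched cells it reached 10 CPM in 4 of 27 positive and 20 of 27 negative cells, and it was higher in the negative cell of 20 of the 27 pairs. The ranges of both genes overlapped between the sets, and some positive cells were above the median of the negative ones.

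Siglech, a sialic acid-binding lectin of microglia, was at 668 CPM against 1489 CPM (log2 difference -1.15, -1.15 in the matched cells) and higher in the negative cell of 21 of the 27 pairs. Tgfbr1, a receptor of the TGF-beta signal that maintains microglial identity, was at 101 CPM against 225 CPM (log2 difference -1.15, -1.79 in the matched cells). P2ry12, the purine receptor that steers process movement toward ATP, was at 1430.0 CPM against 2507 CPM and did not reach 2-fold (log2 difference -0.81, -0.91 in the matched cells). Cx3cr1, the fractalkine receptor, differed by -0.20.

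**Figure D2:**
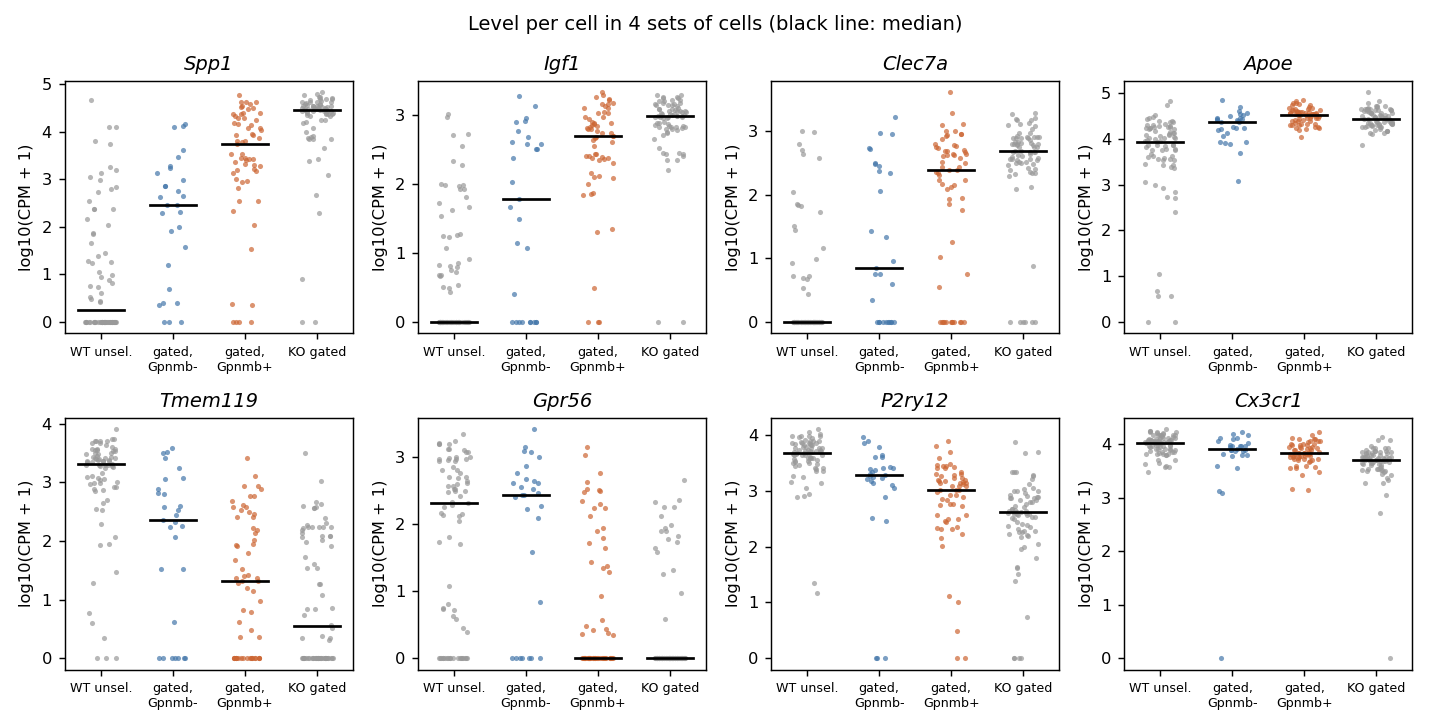
Level per cell as log10(CPM + 1) for 8 genes (panels) in wild-type unselected cells, Gpnmb-negative and Gpnmb-positive gated wild-type cells and gated Trem2 knockout cells, with 1 point per cell and a black line at the median. Spp1 medians are 290.2 and 5382 CPM and Tmem119 medians 231 and 20.2 CPM in negative and positive gated wild-type cells.

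The negative cells did not sit at the level of unselected microglia. Tmem119 was at 2222 CPM in unselected wild-type cells, 729.6 in negative and 195 in positive gated cells. Spp1 was at 936, 2073 and 12028 CPM in the same order, and Igf1 at 62.9, 333 and 674 CPM. Gpr56 was an exception, at 457 CPM in unselected and 440.0 in negative gated cells. Unselected cells came from another plate, so plate and gate cannot be told apart.

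Levels also differed among positive cells. Between the 30 with lower and the 31 with higher Gpnmb, whose median detected genes were 3496 and 3397, Spp1 went from 4073 to 18258 CPM and Igf1 from 324 to 949 CPM. Igf1 in the positive cells with lower Gpnmb was close to the 333 CPM of negative cells. Gpr56 went from 187 to 27.1 CPM, P2ry12 from 2155 to 863 CPM and Lpcat2, a lipid acyltransferase, from 684 to 243 CPM. In gated knockout cells these 5 genes were at 27524, 979, 23.4, 729 and 250.5 CPM. Of the knockout cells 72 of 76 (94.7%) were Gpnmb-positive at the same threshold. They came from another plate, so plate and genotype cannot be told apart.

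**Figure D3:**
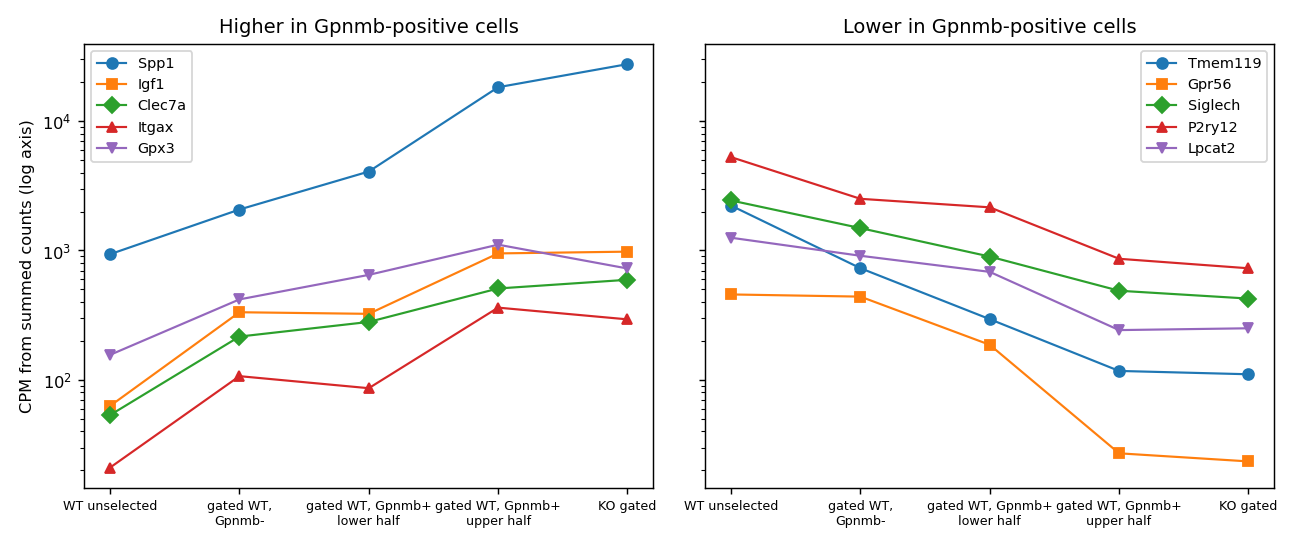
CPM from summed counts (log axis) of 10 genes in wild-type unselected cells, gated wild-type cells without Gpnmb, Gpnmb-positive gated wild-type cells with lower and with higher Gpnmb, and gated knockout cells; lines only join the points of a gene. Tmem119 and Gpr56 are lowest and Spp1 highest in the positive cells with higher Gpnmb and in knockout cells. Unselected and knockout cells came from other plates.

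Trem2, the lipid receptor deleted in the knockout mice, was nearly equal in both sets, at 1671 CPM against 1466 CPM, and its adaptor Tyrobp was at 1593 CPM against 1354 CPM. Trem2 differed by 0.19 and Tyrobp by 0.23, against the median of -0.12.

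Some abundant genes of lipid transport and lysosomal digestion were higher in positive cells by less than 2-fold, yet in most pairs. Apoe, the main brain apolipoprotein, was at 34339 CPM against 22485 CPM and higher in the positive cell of 23 of the 27 pairs. The cathepsins Ctsb and Ctsl were at 18528 CPM against 12216 CPM and 7480.2 CPM against 4255 CPM, higher in 22 of the 27 pairs and 21 of the 27 pairs. Grn, the lysosomal protein progranulin, was at 5099.9 CPM against 3389.5 CPM and higher in 20 of the 27 pairs. Their log2 differences were 0.61, 0.60, 0.81 and 0.59, and all stayed above 0 in every alternative run. Other abundant lysosomal genes were nearly equal or lower. Psap was at 3173 CPM against 3167 CPM, Ctss at 2851 CPM against 2846 CPM and Lgmn at 6200 CPM against 6716 CPM. All these genes were picked out after their values were seen.

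Of 46 measured lysosomal genes 1 was called higher and 0 lower, below the background share, and 31 lay above 0 with a median of 0.24. The called gene was Smpd1, acid sphingomyelinase, at 64.8 CPM against 24.3 CPM. Of 18 proton pump subunits 1 was called, Atp6v0d2, at 87.9 CPM against 20.5 CPM, and the median was 0.04. Few cells carried Atp6v0d2: it reached 10 CPM in 11 of 61 positive and 2 of 29 negative cells. In the matched cells it did so in 3 of 27 and 2 of 27. Of 30 lipid-handling genes 3 were higher, Apoc2, Pnpla2 and Sorl1, and 2 lower, Acsl1 and Vldlr, with a median of 0.07. Vldlr rested on 1 negative cell, in well B11, and differed by 1.45 without it. Among 17 transcription factors and regulators of the MiT/TFE family and of lipid state, Tfec and Fnip2 were higher and Rxra and Ppargc1b lower, and Ppargc1b differed by 0.22 without the cell of well G4. Tfec, a macrophage member of the MiT/TFE family, was at 22.9 CPM against 2.62 CPM (log2 difference 2.72, 2.91 in the matched cells) and at 10 CPM in 10 of 61 positive and 1 of 29 negative cells. Mitf was at 27.2 CPM against 55.8 CPM, and Tfeb and Tfe3 differed by -0.19 and 0.21; none of the 3 was called.

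**Figure D4:**
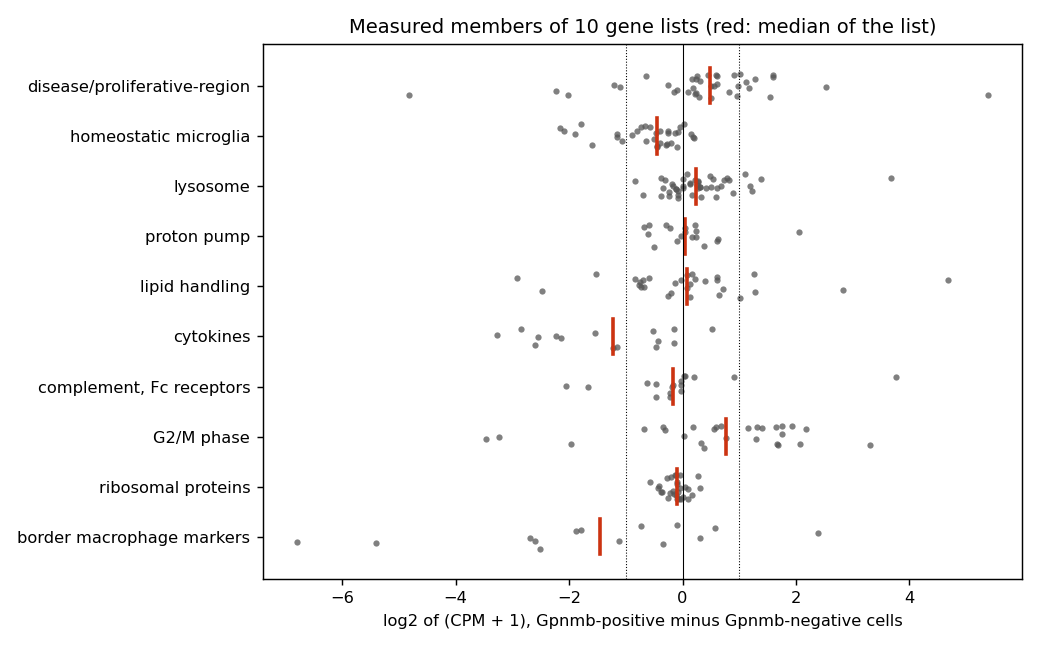
Log2 difference of (CPM + 1) between Gpnmb-positive and Gpnmb-negative cells (horizontal) for the measured members of 10 gene lists (rows), 1 point per gene, with the list median in red and dotted lines at 2-fold. Homeostatic genes lie mostly below 0 (median -0.46), lysosomal genes mostly above it (median 0.24) and ribosomal proteins close to it (median -0.10).

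Cytokine and chemokine genes were lower in positive cells, with 0 of 15 measured members called higher and 9 lower and a median of -1.23. The 9 were Il1a, Ccl2, Ccl4, Ccl7, Ccl12, Cxcl16, Nlrp3, Nfkbiz and Tnfaip3. The cell of well G4 held 80% of the negative counts of Ccl7 and 55.7% of those of Ccl2; without it Ccl7 differed by -0.48 and was not called. Few cells carried them: Il1a, the cytokine interleukin-1 alpha, was at 9.58 CPM against 75 CPM, with 77.1% of the negative counts in 1 cell, and Ccl2, a monocyte-attracting chemokine, was found in 8.2% of positive and 10.3% of negative cells after thinning. C5ar1, the receptor of complement fragment C5a, was at 63.8 CPM against 267 CPM and higher in the negative cell of 15 of the 27 pairs.

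Most markers of border-associated macrophages were lower by counts summed over a set, although their median sum per cell was higher in positive cells. Of 14 markers 8 were called lower and 1, Ms4a7, higher. The summed CPM of the 14 ran from 112 to 20952 in positive and from 0 to 27214 in negative cells, with medians of 1576 and 1014. No marker was at 0 in both sets. Cells with 9 or more of the 14 at 10 CPM numbered 3 of 61 positive and 4 of 29 negative, and the 4 held 99.9% of the negative counts of F13a1 and 99.1% of those of Lyve1. Without these 7 cells, 5 of 9 measured markers were called higher (background 17.4%) and 0 lower (17.9%). The 7 cells were picked by these markers, so the marker counts without them are no independent support. Among the remaining cells 8 of 15 cytokine genes were still lower and 1, Il18, higher, and the same 8 homeostatic genes were lower. Leaving out cells with 3 or more markers at 10 CPM took out 54 of the 90 cells. The cytokine median was then -0.07, and Ccl2, Ccl4 and Ccl7 were higher in positive cells, by 3.95, 4.31 and 0.20. The part of border macrophages in the cytokine difference was not tested.

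**Figure D5:**
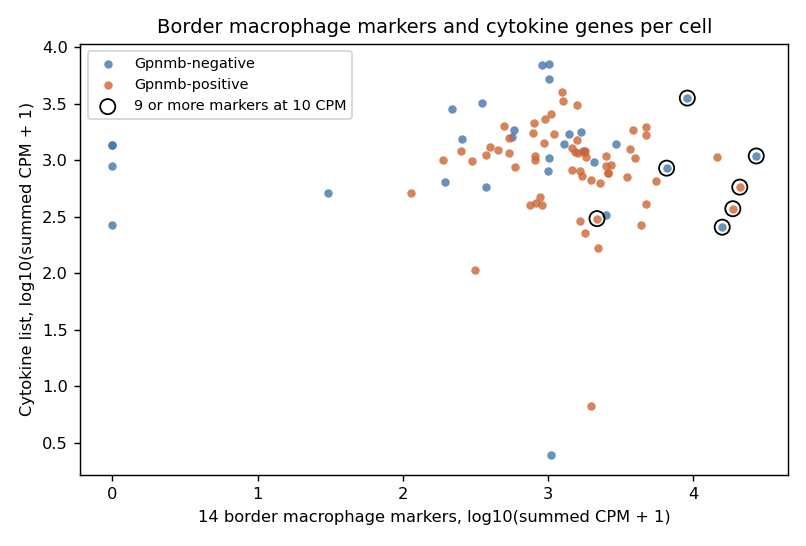
Summed level of the cytokine and chemokine list (vertical) against that of 14 border macrophage markers (horizontal), both as log10(summed CPM + 1), in Gpnmb-negative and Gpnmb-positive gated wild-type cells, with cells holding 9 or more markers at 10 CPM circled. The cell with the highest cytokine sum, 7142 CPM in well D9, had 7 of the markers at 10 CPM and is not circled. Among the circled cells the sum was highest in that of well B6, at 3536 CPM.

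Of 19 measured genes for secreted factors and matrix 6 were called higher, namely Spp1, Igf1, Mmp14, Mmp2, Thbs1 and Hbegf, and 1 lower, Tgfb1. Mmp14, a membrane-bound metalloproteinase, Thbs1, the matrix protein thrombospondin-1, and Hbegf, a growth factor, each had most of their positive counts in 1 cell, with 75.6%, 57.8% and 73.1%.

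Of 27 G2/M genes, which mark dividing cells, 10 were higher and 3 lower, with a median of 0.77. The median was -1.13 among cells below the plate median of detected genes and 3.87 among those above it, so its sign differed between them. A single negative cell, in well F4, held 75.2% of the negative counts of the list and had 2961 detected genes, below the plate median. Without it, which was tried after its values were seen, the median was 2.78 below the plate median of detected genes and 3.36 over all cells. Then 21 of 25 measured members were higher (background 16.2%) and 1 lower (18.5%). Leaving out the cell that held most negative counts of the list raises its members by construction, so these values are no support for it. Without cells with Mki67 or Top2a at 10 CPM, 3 members were higher and 4 lower. Of all 9484 genes measured then, 1646 were higher and 1863 lower. Both genes belong to the list, so leaving out these cells takes out counts of the list by construction. Mki67 or Top2a reached 10 CPM in 15 of 61 positive cells (24.6%, 14.5 to 37.3%) and in 4 of 29 negative cells (13.8%, 3.89 to 31.7%). Of 30 ribosomal protein genes 0 were called, with a median of -0.10.

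Of 16 measured genes of hypoxia and stress 3 were higher, Bnip3l, Hmox1 and Nqo1, and 2 lower, Egln3 and Gclm. Bnip3l, a mitophagy receptor, was at 114 CPM against 40.9 CPM (log2 difference 1.46, 1.46 in the matched cells) and found in 67.2% of positive and 24.1% of negative cells after thinning. Hmox1, which degrades heme, was at 181 CPM against 74.8 CPM (log2 difference 1.27, 1.07 in the matched cells) and found in 59% of positive and 17.2% of negative cells.

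By rank, the 12 highest genes among 253 that met the conditions for naming were Prpf18, Cd22, Abcg3, Atg7, Zfp263, Senp3, Taf7, Map3k14, 1600014C10Rik, Gm5086, Ticam2 and Usp33. After thinning they were found in 26.2 to 50.8% of positive and in 3.45 to 20.7% of negative cells. Naming required a 2-fold call and a count in 25% of cells of the higher set, so these shares follow in part from the rule. Cd22, an inhibitory sialic acid receptor, was at 70.7 CPM against 1.82 CPM, and Atg7, an enzyme of autophagosome formation, at 101 CPM against 2.79 CPM. The 12 lowest among 140 were Smek1, G530011O06Rik, Mgmt, Htt, Mrs2, Ccdc97, Gpr56, Dync1i2, Zufsp, Clpx, Smarcad1 and Ppie. Gpr56 was among them, and Htt, which encodes huntingtin, was at 13.6 CPM against 63.5 CPM, higher in the negative cell of 13 of the 27 pairs. Of these 24 genes 21 reached 20 CPM on the unselected plate as well, where 12 had the same direction, 8 of them by 2-fold or more. There Prpf18, Smek1 and Smarcad1 differed by 2-fold or more the other way, by -1.94, 1.32 and 1.07.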

How the data were processed

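Unnormalized gene counts, 1 column per cell, were deposited by the authors for 23337 genes and 92 spike-in RNAs. Per the submitters' processing notes, HTSeq, Picard, STAR 2.5.3a and Trim Galore 0.4.3 were used with mm10. Annotation and strandedness were not given in the sources used here, and reads of overlapping genes cannot be told apart. Groups, wells and quality calls came from the labels, and cells that passed all 3 quality criteria were kept. Spike-ins were 2.79% of counts and stayed out of CPM. Wells were sorted as single cells and doublets were not searched for.

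Counts were summed over the cells of a set. Pairs were matched 1 to 1 on log2 detected genes, no further apart than 0.25. Genes were named where called, with 20 CPM and a count after thinning in 25% of cells of the higher set. No cell could hold over 25% of the gene's CPM added up over the cells of that set. The direction had to be the same by mean CPM and below and above the median of detected genes. Of the genes left, the 12 highest and 12 lowest by the log2 nearest to 0 were named. Clec7a, Trem2, Tyrobp, Spp1, Igf1, Apoe, Itgax, Mitf, Tfec, P2ry12, Tmem119 and Cx3cr1 were always named, and up to 4 members of each list; other called members were named after their values were seen. The split, lists and rules were chosen with earlier results of these data known, so what they show is no independent support for those results. Gene counts per cell ran from 198374 to 911880. Python 3.11.15, numpy 2.4.6, pandas 2.3.3, scipy 1.17.1 and, for scaling factors only, edgeR 4.0.16 and DESeq2 1.42.0 in R 4.3.3 were used. The code was checked on simulated data. Alternatives were 19 planned and 4 added. Some genes of the lists are not reported here.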

Additional observations from a re-analysis of the deposited data

Results flagged for a closer look

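For 9 called genes that the text names, the difference between cells with and without Gpnmb RNA on the unselected wild-type plate (17 positive and 61 negative cells) was at least 2-fold the other way. Of 76 called genes named, 48 reached 20 CPM on both plates; 29 of these had the same direction on both, 17 of them by 2-fold or more. Genes had to reach 20 CPM on both plates, a limit chosen after seeing the data, and the difference between plates was not tested. On the unselected plate, genes higher in gated positive cells had log2 differences of -1.94 for Prpf18, -2.78 for Pnpla2 and -1.06 for Hmox1, against 4.58, 1.27 and 1.27 on the gated plate. Genes lower in gated positive cells were at 1.32 for Smek1, 1.07 for Smarcad1, 1.94 for Ccl4, 5.75 for Postn, 1.87 for Il1a and 4.44 for Pf4. On the gated plate these 6 were at -4.76, -2.06, -2.23, -4.83, -2.84 and -1.12. Of Gpnmb counts on the unselected plate, 75.02% lay in 1 cell, and its positive cells had a median of 4420 detected genes against 2324.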

How the results depend on the processing

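Of 105 values of the main results under 23 alternatives, 92 stayed close and 13 moved, where close means a count within 1.5 times the main one, a share within its exact interval, or a ratio within the exact interval of the positive cells' median. Single genes moved more: Tfec lay between 1.87 and 4.58 and Mamdc2 between 2.03 and 8.67. With TMM factors, DESeq2 size factors and spike-in scaling 5, 5 and 5 homeostatic genes were called lower, against 8. Of all measured genes, 1415 of 9612, 1428 of 9607 and 1302 of 9628 were then lower, against 1733 of 9597. With spike-in scaling 12 disease-associated genes were called higher, against 7. All genes called higher were then 1818 of 9628, against 1467 of 9597. Requiring 2-fold below and above the median of detected genes gave 868 genes higher and 592 lower of 9597 measured. Of 38 disease-associated genes 4 were then higher, and of 33 homeostatic genes 3 were lower. Requiring 20 CPM gave 739 higher and 1095 lower of 6796 measured. A threshold of 100 CPM of Gpnmb made the positive share 55.6%. Without cells with 3 or more border macrophage markers the ratio of median detected genes was 1.48, against 1.16. Without the cell of well G4, which held most negative counts of several of them, 13 disease-associated genes were higher (background 15.9%).

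Of 76 called genes named, 10 changed direction in 1 or more alternatives. Without cells with 3 or more border markers the log2 differences were 4.31 for Ccl4, 1.00 for Rxra, 3.95 for Ccl2, 0.20 for Ccl7, 0.60 for F13a1 and 3.15 for Pf4. Without cells with 9 or more they were 0.64 for Lyve1, 2.28 for F13a1 and 2.91 for Pf4. With any Gpnmb count as positive, Rxra was at 0.39 and Lyve1 at 0.28, and without cycling cells Ccnb1 was at -0.59. Without the cell of well G4, Ppargc1b was at 0.22, and without that of well B11, Vldlr was at 1.45. The 4 alternatives that leave out 9-marker cells, B11, G4 or F4 were chosen after seeing the data, and B11 was taken in error for the cell that proved to be G4. The causes were not tested.

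The small negative set limits shares, where no cell among 29 still leaves room for 10.3% (3 cells of the total). No paired analysis was possible because the labels give the cells of both sets no shared replicate number and no result comes from a test; the 27 pairs were matched on detected genes only.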

Other observations

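Genes of red blood cells were found in a few cells with Gpnmb RNA. Hbb-b1 and Hba-a1, which encode globins, and Alas2, the heme synthesis enzyme of erythroid cells, were at 49.4, 14.7 and 68.2 CPM in positive cells and at 0, 0.171 and 0.912 CPM in negative cells. Any of the 3 reached 10 CPM in 9 of 61 positive and 1 of 29 negative cells, and all 3 had counts in 4 positive and 0 negative cells. One cell held 55% of the positive counts of Alas2.

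Antigen presentation genes gave 1 of 14 higher, H2-Ab1, and 1 lower, Cd74, the invariant chain, at 13.3 CPM against 120.2 CPM with 57.8% of the negative counts in 1 cell. Of 18 interferon-response genes 6 were higher and 3 lower, and of 22 S phase genes 6 were higher and 3 lower. Counts higher and lower were 3 and 4 of 16 for sterol synthesis, 1 and 1 of 20 for glycolysis, 1 and 0 of 28 for the respiratory chain, 1 and 2 of 14 for immediate early genes, 1 and 1 of 14 for galectins, annexins and S100 proteins, 0 and 1 of 15 for Trem2 adaptors and signalling, 0 and 1 of 18 for engulfment, and 1 and 2 of 17 for complement and Fc receptors.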
